A study of Mus musculus with 32 samples.

Results

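The genes described here encode the chains of collagen. They were chosen from the table of read counts by name alone, as every gene whose mouse symbol is Col, a number, a and a number. This gave 44 genes of 55357 in the table, of which 11 encode fibrillar chains, 6 the chains of basement membrane type IV collagen, 9 the chains of fibril-associated collagens (FACIT), and 18 chains of other kinds. Brain arteries were profiled by bulk RNA sequencing in 4 groups of 8 mice, with 1 library per mouse and no treatment in any group. Notch3-/- mice, which lack a functional Notch3 gene, and Notch3+/+ mice were 3 months old. TgNotch3R169C mice, a CADASIL model in which an artificial chromosome adds rat Notch3 with a cysteine mutation to the mouse's own gene, and WT mice were 12 months old. Controls were littermates of the mutants, and the lines had been backcrossed on C57BL/6. The transgene lies on the X chromosome, and no label states the sex of a mouse.

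Collagens are trimers of chains wound in a triple helix. Fibrillar collagens (types I, II, III, V, XI) form the tensile fibrils of the adventitia and media of arteries, FACITs sit on the fibril surface, and type IV collagen forms the sheet of the basement membrane that surrounds each smooth muscle cell and underlies the endothelium. Types XV and XVIII join basement membranes to the matrix around them, type VI forms beaded filaments, and types XIII, XVII, XXIII and XXV are membrane proteins. In the brain vasculature, mutations of COL4A1 and COL4A2 cause small vessel disease in humans. In brain arteries, fibroblasts of the adventitia and leptomeninges are the main source of fibrillar collagen, whereas endothelial and mural cells make type IV collagen.

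Levels are CPM, read counts scaled to a common normalized library size, and changes are log2 fold changes between 2 groups. Total counts per library ranged from 20289487 to 54481934. Notch3, which checks the labels, was at 13.7 to 18.5 CPM in Notch3-/- and 65.8 to 98.1 CPM in Notch3+/+ libraries, and at 107.9 to 218.7 CPM in TgNotch3R169C and 60.1 to 85.0 CPM in WT libraries. The 8 smooth muscle markers and the 8 endothelial markers examined had counts in every group. In 7 libraries the choroid plexus marker Ttr exceeded 1000 CPM (7889 to 23134 CPM), against at most 328.7 CPM in the other 25. These choroid-rich libraries were Notch3-/- replicate 8, TgNotch3R169C replicates 5 and 8, and WT replicates 2, 4, 5 and 6, and none was Notch3+/+. The summed level of the 10 choroid plexus markers ranged from 326.5 to 678.8 CPM in Notch3+/+, from 240.2 to 25751 CPM in Notch3-/-, from 299.7 to 26180 CPM in WT, and from 283.4 to 14849 CPM in TgNotch3R169C libraries, and no marker was at 0 in any group. Xist was high in 4 libraries of each group, replicates 5 to 8, so the replicate number goes with Xist. Of the choroid-rich libraries, WT replicates 2 and 4 had low Xist and the others high Xist. Leaving them out therefore also changes the balance of Xist between groups. In such bulk tissue, fewer cells of a type and less RNA per cell cannot be told apart.

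All 44 collagen genes had counts. The bodies of 28 overlap another annotated gene, 18 of them one on the opposite strand, so their counts may hold reads of a neighbor. Their summed level was 7301 ± 541 CPM (mean ± SD, n = 8) in Notch3+/+ and 7311 ± 508 CPM in Notch3-/- mice, and 5991 ± 356 CPM in WT and 6317 ± 702 CPM in TgNotch3R169C mice. To compare genes, CPM was divided by the exon length in kb. On this scale 5 genes exceeded 50 CPM per kb over all libraries. They were Col6a1 (104.8), which encodes a chain of beaded filaments, Col1a2 (101.8) and Col1a1 (97.0), the chains of type I collagen, Col9a2 (82.5), a chain of the FACIT type IX, and Col6a2 (60.0). A further 15 genes lay between 10 and 50 CPM per kb, among them Col3a1 (48.0), the chain of type III collagen, Col4a1 (47.0) and Col4a2 (34.9), and Col18a1, whose protein carries endostatin at its end. There were 15 genes between 1 and 10, and 9 under 1 CPM per kb, the lowest being Col10a1 (0.0992), Col6a5 (0.0756) and Col6a4 (0.0494).

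**Figure D1:**
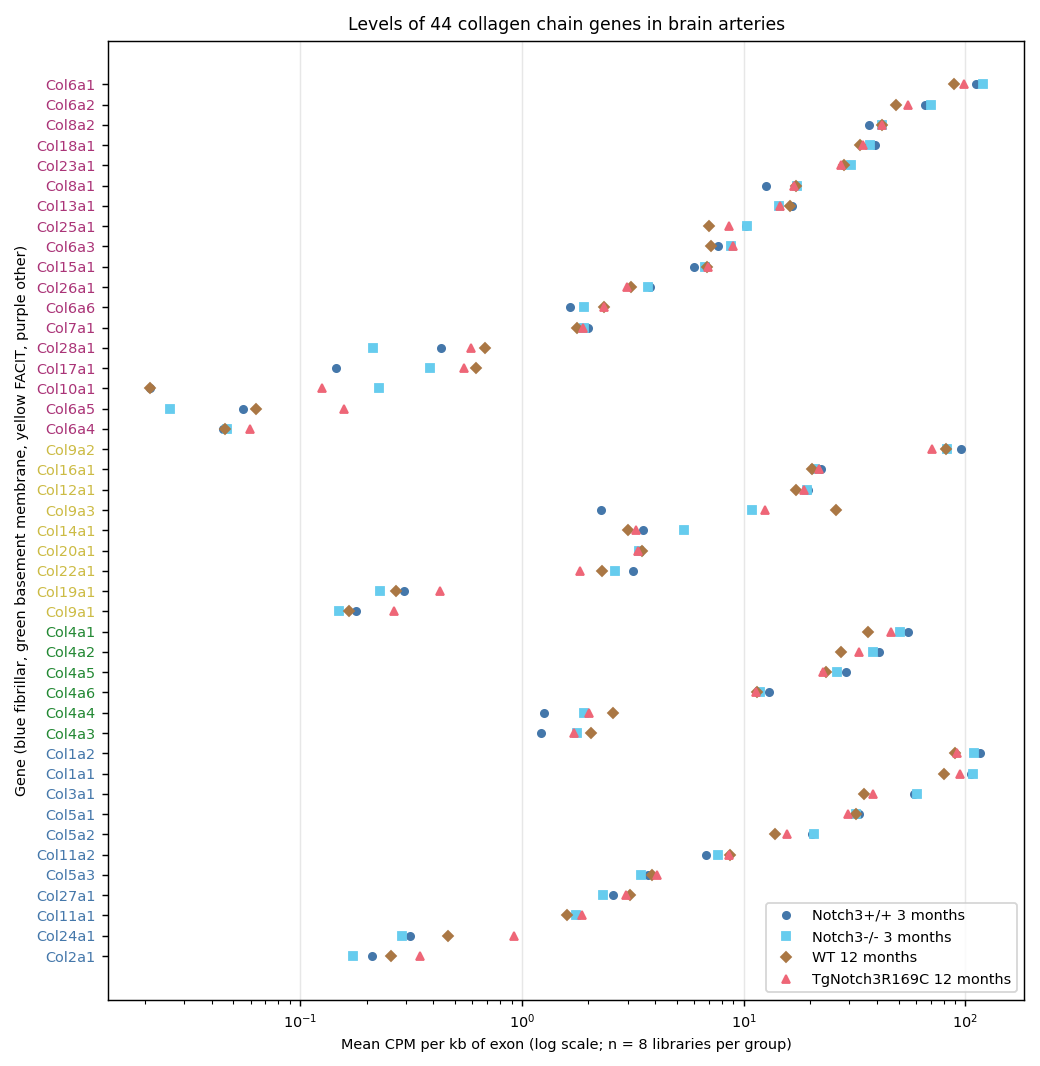
Mean CPM per kb of exon (log scale) of each of the 44 collagen genes in the 4 groups (n = 8 libraries per group), ordered by level within class, with the class given by the color of the gene name. Fibrillar genes run from Col2a1 (0.248 over all libraries) to Col1a2 (101.8), and the markers of the 4 groups are apart most for Col9a3 among the genes over 10 CPM per kb.

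Within a library, fibrillar chains made up 35.5% ± 0.916 of the summed collagen CPM per kb in Notch3+/+ mice, 35.0% ± 2.31 in Notch3-/-, 32.3% ± 1.77 in WT and 33.3% ± 2.28 in TgNotch3R169C mice (SD, n = 8). Type IV chains made up 14.3% ± 0.989, 13.2% ± 0.783, 12.4% ± 0.636 and 13.7% ± 1.13 in the same order. FACIT chains were at 15.3% ± 1.55, 14.7% ± 1.88, 18.5% ± 1.98 and 15.5% ± 2.26. The ranges of these shares overlapped between all groups for each of these classes. Col9a3, a FACIT chain with its highest values in the choroid-rich libraries, was at 2.27, 10.9, 26.2 and 12.4 CPM per kb in the same order. Among the type IV chains, Col4a1 and Col4a2, which form the ubiquitous trimer, were followed by Col4a5 (25.4 CPM per kb) and Col4a6 (12.0), the chains of a trimer found in vascular smooth muscle basement membrane. Col4a4 (1.94) and Col4a3 (1.69), which pair with Col4a5 in the kidney glomerulus, were lowest. Among the multiplexins, Col18a1 was more abundant than Col15a1 (6.62).

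The first comparison asked which genes depend on Notch3. In Notch3-/- mice 1 collagen gene of the 42 tested rose, and none fell. At the same threshold, edgeR adjusted p below 0.05, the share called over all 17714 genes tested was 0.649%. The called gene was Col14a1, a FACIT chain that binds the surface of fibrils. Col14a1 ranged from 16.7 to 27.9 CPM (median 25.5) in Notch3+/+ and from 29.3 to 56.4 CPM (median 38.2) in Notch3-/- mice. The groups did not overlap, which was so for 0.322% of all genes tested and for no other collagen. The log2 fold change was 0.63 (SE 0.130, edgeR adjusted p = 0.0335), or 1.54-fold. Without Notch3-/- replicate 8, the choroid-rich library, it was 0.62 with an adjusted p of 0.0611. The call was kept in 7 of 16 fits that each left out 1 library, while the log2 fold change stayed between 0.53 and 0.68.

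The other classes held no called gene in Notch3-/- mice. At an unadjusted p below 0.05 there were 10 of 42 genes, 6 higher and 4 lower, against 7.69% of all genes. The higher ones included Col9a3, Col17a1 and Col8a1, with log2 fold changes of 2.26, 1.38 and 0.47. Without the choroid-rich library, Notch3-/- replicate 8, these were −0.11, −0.04 and 0.27. DESeq2 called 2 collagens and 1.28% of all genes, edgeR with the replicate number as a block 1 and 0.548%, and edgeR without the choroid-rich library none and 0.549%. The fibrillar genes had log2 fold changes between −0.28 and 0.19 with a median of −0.04. For the chains of types I and III the differences were small, with 95% CIs of −0.13 to 0.19 for Col1a1, −0.23 to 0.06 for Col1a2 and −0.18 to 0.26 for Col3a1. Col4a1 had 377.0 ± 42.5 CPM without Notch3 and 410.4 ± 46.1 CPM in the Notch3+/+ controls (95% CI of the log2 fold change −0.29 to 0.04), and Col4a2 at 253.9 ± 22.3 and 269.6 ± 22.3 CPM (−0.21 to 0.04). The next genes by p were Col28a1 (log2 fold change −1.01, adjusted p = 0.250), which encodes a minor chain at 1.05 ± 0.679 CPM without Notch3 against 2.13 ± 0.670 CPM in controls, Col13a1 (−0.19, adjusted p = 0.313), a transmembrane chain, and Col6a3 (0.19, adjusted p = 0.314), the third chain of type VI collagen. Without Notch3-/- replicate 2, Col28a1 passed the threshold at −1.33 (edgeR adjusted p = 0.0219). The median over the 42 collagens was −0.02, against −0.0011 over all genes. The smooth muscle markers fell in the same mice, 6 of 8 called with a median of −0.63. Their summed level was 1665 to 2519 CPM in Notch3-/- and 2419 to 4236 CPM in Notch3+/+ libraries, with no marker at 0. The part of this in the collagen values was not tested. None of the 12 fibroblast markers was called.

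Col10a1, the collagen of hypertrophic cartilage, had too few reads to be tested in any of the comparisons of 2 groups. It had 0 to 7 reads per library in Notch3+/+ and 6 to 59 in Notch3-/- mice, or 0 to 0.204 and 0.166 to 1.87 CPM. In WT and TgNotch3R169C mice it had 0 to 4 and 1 to 28 reads. The Notch3-/- values reached below the highest Notch3+/+ value in 1 library. With no filter, the log2 fold change was 3.38 in Notch3-/- mice (SE 0.622, edgeR adjusted p = 0.0173) and 2.62 in TgNotch3R169C mice (SE 0.596, adjusted p = 0.255). DESeq2 gave 3.44 (adjusted p = 3.13e-05) and 2.68 (adjusted p = 0.0140). The gene body of Col10a1 overlaps Nt5dc1 on the opposite strand, and whether reads were counted by strand is not stated. Nt5dc1 itself had 13.9 ± 2.61 CPM without Notch3 and 14.1 ± 1.35 CPM in controls at 3 months, and was at 13.7 ± 3.24 in TgNotch3R169C and 14.9 ± 2.58 CPM in WT mice. The 12 cartilage and bone markers summed to 56.0 to 71.9 CPM in Notch3+/+ and 45.6 to 64.0 CPM in Notch3-/- libraries, with none at 0. They summed to 40.2 to 53.6 CPM in WT and 48.2 to 99.0 CPM in TgNotch3R169C libraries. Of the 8 tested, Dmp1 was called lower in Notch3-/- mice (−0.81, edgeR adjusted p = 0.0112), where 0.649% of all genes were called, and none was called in TgNotch3R169C mice. Of the 12 markers, 5 were under 1 CPM in Notch3+/+ mice (Sost, Epyc, Ibsp, Matn1 and Bglap) and 4 in Notch3-/- mice (all but Epyc), and their part in the Col10a1 values was not tested. Col6a5 was the other gene not tested in these comparisons, at 0.0409 to 5.95 CPM over TgNotch3R169C libraries and 0.109 to 2.75 CPM over WT libraries.

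**Figure D2:**
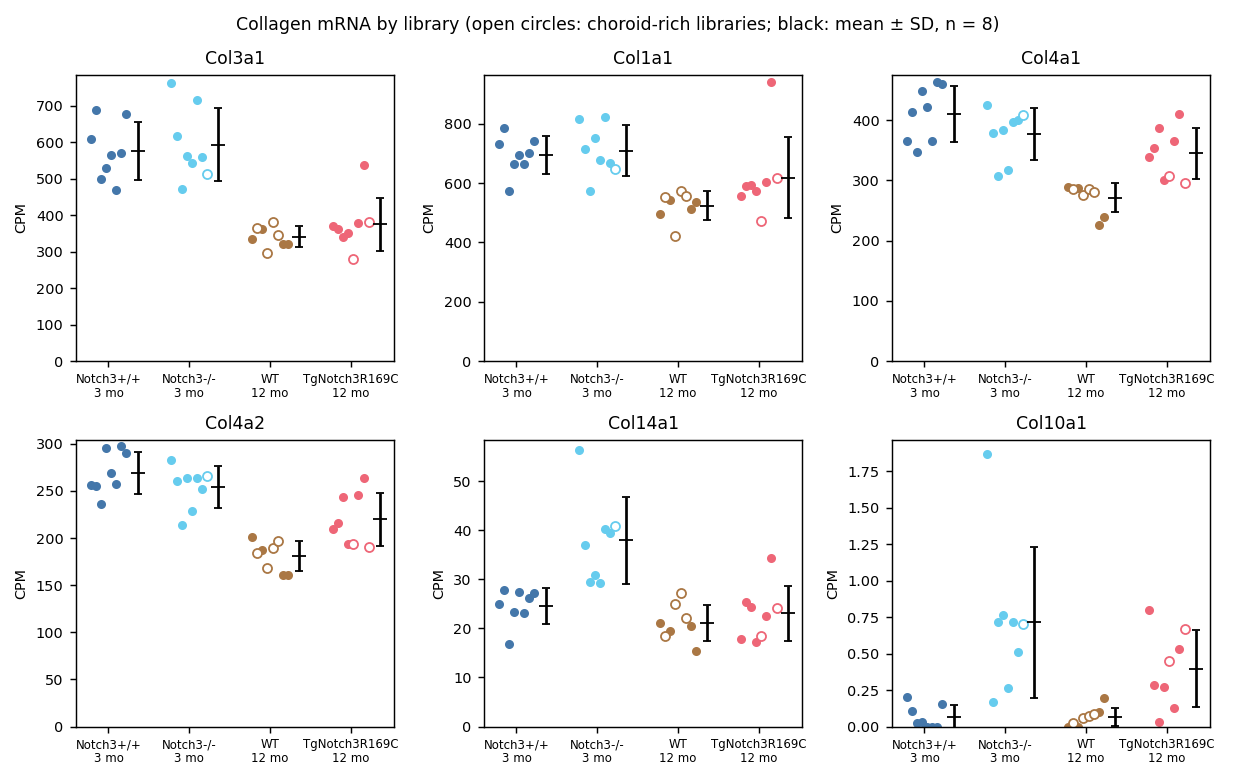
CPM of 6 collagen genes in each library, by group, with open circles for the 7 choroid-rich libraries and black marks for the mean ± SD (n = 8). Col3a1, Col1a1, Col4a1 and Col4a2 have lower means in the groups aged 12 months, where TgNotch3R169C but not WT libraries overlap the groups aged 3 months. Col4a1 does not overlap between TgNotch3R169C and WT, and Col14a1 does not overlap between Notch3-/- and Notch3+/+.

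The second comparison set TgNotch3R169C against WT mice at 12 months. Notch3 itself was at 181.8 ± 34.5 CPM in TgNotch3R169C and 73.1 ± 8.18 CPM in WT mice. No group carried a transgene without the mutation, so the mutation and the added Notch3 copies cannot be told apart. No collagen gene of 42 passed the threshold in TgNotch3R169C against WT mice (edgeR adjusted p below 0.05), where 0.113% of all 17731 genes tested did. At an unadjusted p below 0.05 there were 7, against 7.27% of all genes. DESeq2 called 2, Col4a1 and Col10a1, and 0.33% of all genes. None was called with the replicate block (0.0338% of all genes) or without the choroid-rich libraries (0.0111%). The median over the collagens was 0.03, against −0.0074 over all genes.

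The 3 collagens with the smallest p were Col4a1, Col4a2 and Col6a3. Col4a1 ranged from 226.0 to 288.6 CPM (median 283.7) in WT and from 296.3 to 410.7 CPM (median 346.0) in TgNotch3R169C mice. The groups did not overlap, as was so for 0.141% of all genes tested. The log2 fold change was 0.35 (95% CI 0.18 to 0.51, edgeR adjusted p = 0.146, DESeq2 adjusted p = 0.00966). It was 0.46 (adjusted p = 0.221) without the 6 choroid-rich libraries of these groups. Col4a2 ranged from 160.6 to 201.3 CPM (median 185.6) in WT and from 191.0 to 264.0 CPM (median 213.1) in TgNotch3R169C mice, so that the groups overlapped. Its log2 fold change was 0.28 (95% CI 0.12 to 0.44, adjusted p = 0.398). All 8 TgNotch3R169C libraries lay above the WT mean for both genes.

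Col6a3 averaged 85.2 ± 6.63 CPM in WT and 107.0 ± 18.3 CPM in TgNotch3R169C libraries, and its log2 fold change was 0.33 (adjusted p = 0.470). It passed the threshold with the fibroblast markers as a covariate (0.38, edgeR adjusted p = 0.0352) and without TgNotch3R169C replicate 5 (0.40, adjusted p = 0.0178). Col6a1 and Col6a2, its partners, had log2 fold changes of 0.14 and 0.19 (adjusted p = 0.771 and 0.733). The FACIT chains Col9a2 (−0.20, adjusted p = 0.627) and Col22a1 (−0.33, adjusted p = 0.645), the latter known from myotendinous junctions, were the lower genes at an unadjusted p below 0.05. For the main fibrillar chains the 95% CIs were 0.01 to 0.47 for Col1a1, −0.16 to 0.21 for Col1a2 and −0.07 to 0.35 for Col3a1. TgNotch3R169C replicate 7 had the highest Col1a1 (939.4 CPM), Col3a1 (537.7 CPM) and Col14a1 (34.3 CPM) of its group. Its 12 cartilage and bone markers summed to 99.0 CPM, while no library of the other groups exceeded 71.9 CPM. Over the 16 fits that each left out 1 library, the log2 fold change of Col1a1 ran from 0.13 to 0.29 and that of Col3a1 from 0.05 to 0.20, with neither called. The part of these markers in the collagen values was not tested. None of the 8 smooth muscle markers was called (median −0.23) and none of the 12 fibroblast markers was (median −0.06).

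The difference between the changes in the 2 mutants was tested in a fit of all 4 groups, over all 44 collagens. None was called, against 0.35% of all 18555 genes tested, and 6 of 44 had an unadjusted p below 0.05, against 8.62% of all genes. DESeq2 called 1, Col4a1, and 0.677% of all genes. None was called with the replicate block (0.34%) or without the choroid-rich libraries (0.205%). For Col4a1 the difference, TgNotch3R169C change minus Notch3-/- change, was 0.47 (SE 0.111, edgeR adjusted p = 0.0531), and for Col4a2 0.37 (SE 0.0980, adjusted p = 0.117). The call on Col4a1 was made in 7 of 32 fits that left out 1 library each, with adjusted p from 0.0265 to 0.116. In the 2 groups of mutants the age also differed, so mutation and age cannot be told apart in this difference.

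The third comparison set the control groups against each other, WT at 12 months against Notch3+/+ at 3 months. Age, mouse line and any separate handling cannot be told apart here. The libraries are the controls of the comparisons above, so the 3 comparisons share them. Of 42 collagen genes, 18 were called, 13 lower and 5 higher at 12 months, against 7.92% of all 17643 genes tested, of which 4.05% were lower and 3.87% higher. At an unadjusted p below 0.05 there were 24, against 24.2% of all genes. The median over the collagens was −0.12, against 0.0026 over all genes. In 9 genes the groups did not overlap, 7 lower and 2 higher, as was so for 1.24% of all genes tested, 0.845% lower and 0.391% higher. Without the choroid-rich libraries, which left 4 WT mice, 10 genes were called, 8 lower and 2 higher, against 2.22% of all genes, 1.14% lower and 1.08% higher. DESeq2 called 20 collagens and 10.6% of all genes, the choroid marker covariate gave 9 and 1.89%, and the replicate block 12 and 4.05%.

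Of the 11 fibrillar genes, 4 fell (Col3a1, Col1a1, Col1a2 and Col5a2) and 1 rose (Col11a2). Col3a1 ranged from 470.3 to 687.8 CPM (median 569.0) at 3 months and from 295.7 to 382.2 CPM (median 339.5) at 12 months. No library of one age reached the range of the other. The log2 fold change was −0.76 (SE 0.0784, edgeR adjusted p = 0.000109). Col1a1 ranged from 574.7 to 783.8 CPM at 3 months and from 422.4 to 572.4 CPM at 12 months, and Col1a2 from 1236 to 1613 CPM and from 971.1 to 1195 CPM. Both were lower in every WT library, with log2 fold changes of −0.41 (adjusted p = 0.00174) and −0.37 (adjusted p = 0.000710). Col5a2, a chain of type V collagen, which starts fibrils, fell by 0.56 on the log2 scale (adjusted p = 0.00100), while the type V chains Col5a1 (−0.05, adjusted p = 0.672) and Col5a3 (0.06, adjusted p = 0.845) were not called. Col11a2, a chain of type XI known from cartilage, rose by 0.36 (adjusted p = 0.0202), from 46.3 ± 5.58 to 59.8 ± 8.49 CPM. These 5 fibrillar genes were also called without the choroid-rich libraries, and 6 of the 11 fibrillar genes were not called in either fit.

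Col3a1 and Col1a2 are shown with the 250 bases before their start, because both fell and Col3a1 is the called gene with the greatest fall. The sequences are from RefSeq for GRCm38.p6, read on the plus strand at chr1:45311288-45311537 for Col3a1 and at chr6:4505368-4505617 for Col1a2. Capitals mark matches to the TATA box (letters TATAAA), to the NF-Y motif known as CCAAT box, and to the GC box (letters GGGCGG), searched on both strands.
Col3a1: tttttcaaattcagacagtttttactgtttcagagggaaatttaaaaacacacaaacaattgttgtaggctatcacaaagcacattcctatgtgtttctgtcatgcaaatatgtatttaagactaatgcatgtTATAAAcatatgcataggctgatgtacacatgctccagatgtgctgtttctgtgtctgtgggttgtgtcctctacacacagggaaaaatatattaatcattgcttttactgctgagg
Col1a2: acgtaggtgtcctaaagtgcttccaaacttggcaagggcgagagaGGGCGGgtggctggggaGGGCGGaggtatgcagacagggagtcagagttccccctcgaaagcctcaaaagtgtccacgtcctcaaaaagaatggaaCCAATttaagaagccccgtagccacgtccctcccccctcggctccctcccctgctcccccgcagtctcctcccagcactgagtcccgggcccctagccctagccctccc
The Col3a1 window holds a TATA box 117 bases before the start. The Col1a2 window holds a CCAAT box 109 bases and GC boxes 205 and 188 bases before it. In windows of 300 bases (250 before to 50 after the start), a GC box was present in 22 of the 35 collagen genes that have a window, 62.9%, and in 38.2% of 27025 genes. The other shares were 14.3% and 15.7% for the TATA box and 37.1% and 41.1% for the CCAAT box. The core of the RBPJ motif, TGGGAA, through which Notch acts on its targets, was in 34.3% of the collagens and 28.3% of all genes, and in none of the windows of Col1a2, Col3a1, Col4a1 and Col4a2. A match says only that these letters are present.

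Of the 6 type IV chains, Col4a1, Col4a2 and Col4a5 fell in the 12-month controls, Col4a4 rose, and Col4a3 and Col4a6 were not called. Col4a1 ranged from 346.8 to 463.5 CPM (median 417.4) at 3 months and from 226.0 to 288.6 CPM (median 283.7) at 12 months. Col4a2 ranged from 236.7 to 297.5 CPM and from 160.6 to 201.3 CPM. The ages did not overlap for either gene. The log2 fold changes were −0.60 (SE 0.0729, edgeR adjusted p = 0.000338) and −0.58 (SE 0.0608, adjusted p = 0.000109), and each was called in all 16 fits that left out 1 library. Col4a5 fell less, by 0.32 on the log2 scale (adjusted p = 0.00244), and Col4a6, its neighbor on the X chromosome, had a log2 fold change of −0.19 (adjusted p = 0.119). Col4a1 and Col4a2 lie head to head on chromosome 8, and their RefSeq starts are 21 bases apart. The 22 bases that run from the one start to the other, on the plus strand of GRCm38.p6 at chr8:11312805-11312826, are shown because both genes start here and both fell. Capitals mark a GC box.
Col4a2 and Col4a1: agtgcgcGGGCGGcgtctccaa

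**Figure D3:**
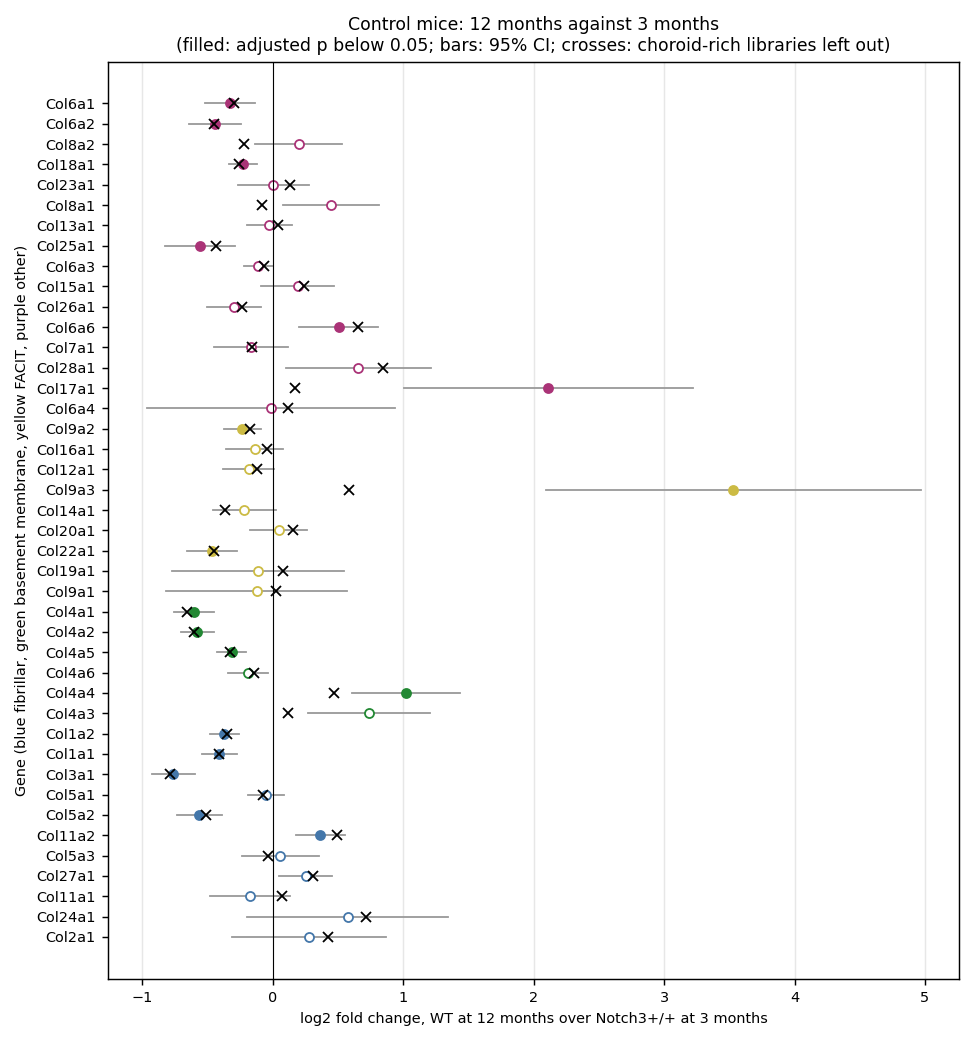
Log2 fold change of each of the 42 collagen genes tested, WT at 12 months over Notch3+/+ at 3 months, with 95% CIs, filled circles where the adjusted p was below 0.05 and crosses for the fit without choroid-rich libraries. Col3a1 (−0.76), Col4a1 (−0.60) and Col4a2 (−0.58) keep their place without these libraries, while Col9a3, Col17a1, Col4a4 and Col4a3 move toward 0.

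Among the other classes, Col6a2 fell by 0.44 on the log2 scale (edgeR adjusted p = 0.00974) and Col6a1 by 0.33 (adjusted p = 0.0353). Col6a6, a chain of the same filaments, rose by 0.51 (adjusted p = 0.0401), and Col6a3 had a log2 fold change of −0.11 (adjusted p = 0.207). Col18a1 fell by 0.23 (adjusted p = 0.0117), whereas Col15a1, the other multiplexin, had a log2 fold change of 0.19 (adjusted p = 0.409). Col25a1, a membrane collagen known from neurons and amyloid plaques, fell by 0.56 (adjusted p = 0.0150), Col22a1 by 0.47 (adjusted p = 0.00624), and Col9a2 by 0.23 (adjusted p = 0.0471). Of these, Col22a1 and Col6a6 were called without the choroid-rich libraries. Col6a1, Col6a2, Col18a1, Col25a1 and Col9a2 were not, with log2 fold changes of −0.30, −0.45, −0.26, −0.44 and −0.17 and adjusted p of 0.139, 0.0630, 0.0516, 0.151 and 0.220. When 1 library was left out, Col9a2 was called in 3, Col6a6 in 5 and Col6a1 in 12 of 16 fits.

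The smooth muscle markers fell with these collagens, 8 of 8 called with a median of −0.78, and 6 of 8 without the choroid-rich libraries. Their summed level was 1349 to 2062 CPM at 12 months against 2419 to 4236 CPM at 3 months, with no marker at 0. Of the 12 fibroblast markers none was called and none had an unadjusted p below 0.05, with a median of −0.03 and summed levels of 46395 to 56505 CPM against 47421 to 59222 CPM. The endothelial marker Pecam1 fell (1 of 8 called, median −0.17), and 4 of 8 oligodendrocyte markers rose (median 0.70). Of the other lists of 8 markers, 2 pericyte markers and 1 astrocyte marker rose, 2 astrocyte markers and 1 macrophage marker fell, and no neuron marker was called. Of the 12 cartilage and bone markers, 8 were tested and 2 fell. The part of these markers in the collagen values was not tested.

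The called increases of Col9a3, Col17a1 and Col4a4 went with choroid plexus RNA. Col9a3, a chain of type IX collagen, was at 111.3 to 281.0 CPM in the 7 choroid-rich libraries and at 5.08 to 14.98 CPM in the other 25. Col17a1, a collagen of hemidesmosomes, was at 3.61 to 12.7 CPM and at 0.574 to 11.3 CPM. A single library, TgNotch3R169C replicate 2, reached the choroid-rich range among the 25. Col4a4 was at 28.8 to 59.1 CPM and at 9.81 to 24.6 CPM. Col4a3 was at 19.1 to 48.4 CPM and at 8.37 to 23.2 CPM, where 1 library of the 25 reached the choroid-rich range. Col8a1 and Col8a2, the chains of type VIII collagen, had medians of 190.4 and 246.3 CPM in choroid-rich and 102.6 and 160.1 CPM in the other libraries.

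**Figure D4:**
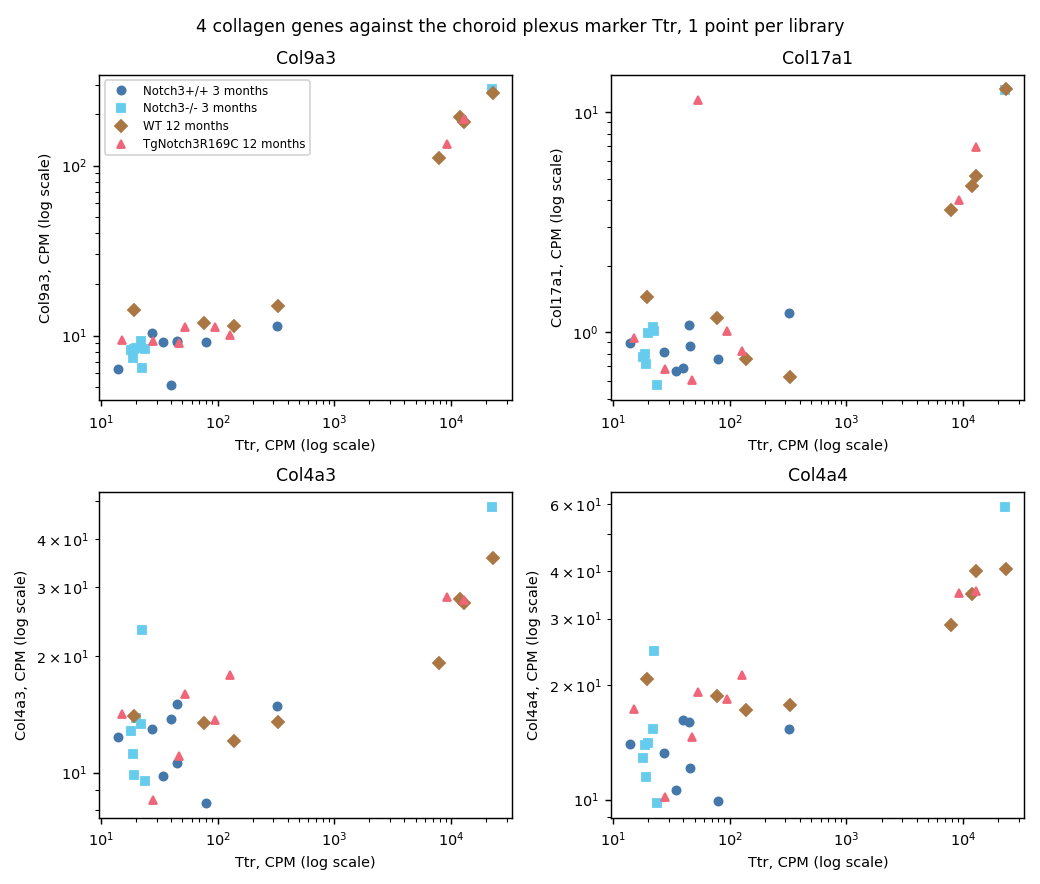
CPM of Col9a3, Col17a1, Col4a3 and Col4a4 against CPM of Ttr in each of the 32 libraries (log scales on both axes), with a marker per group. The 7 libraries with Ttr over 1000 CPM hold the highest values of Col9a3 and Col4a4, and Col17a1 is also high in 1 TgNotch3R169C library with little Ttr.

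In the comparison of the control groups, Col9a3 was at 101 ± 103 CPM at 12 months and 8.73 ± 2.06 CPM at 3 months, a log2 fold change of 3.53 (SE 0.680, edgeR adjusted p = 0.00595). Col4a4 rose by 1.02 (adjusted p = 0.00568) and Col17a1 by 2.11 (adjusted p = 0.0214). Without the choroid-rich libraries the log2 fold changes were 0.59, 0.47 and 0.17, and none was called (adjusted p = 0.104, 0.0813 and 0.737). The WT libraries left had 11.41 to 14.98 CPM of Col9a3, against 5.08 to 11.40 CPM in Notch3+/+. For Col4a4 these ranges were 17.2 to 20.8 and 9.93 to 16.2 CPM, and for Col17a1 0.627 to 1.44 and 0.668 to 1.22 CPM. Col4a3, not called in the full fit (0.74, adjusted p = 0.0508), was at 0.11. In the same comparison 8 of 10 choroid plexus markers were called higher, and none was higher, and 1 lower, when these libraries were left out.

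Pairs of chains were also compared within a library, as the log2 ratio of their counts, which does not depend on the library size. Each pair was of one collagen type, except Col3a1 (type III) with Col1a1 (type I). There were 6 ratios in 3 comparisons, and the 18 two-sided p-values of the exact permutation test were adjusted together. In TgNotch3R169C mice Col1a1 was higher relative to Col1a2. The log2 ratio ran from −1.21 to −0.99 (median −1.08) in WT and from −1.03 to −0.72 (median −0.91) in TgNotch3R169C mice, which overlap. The difference was 0.21 (SE 0.0445, exact permutation test, adjusted p = 0.00186), with 8 of 8 TgNotch3R169C libraries above the WT mean. It was 0.25 (adjusted p = 0.0514, exact permutation test) without the choroid-rich libraries, which left 6 against 4. In Notch3-/- mice the same ratio differed by 0.12 (adjusted p = 0.0653, exact permutation test), and whether the mutants differ in it was not tested.

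**Figure D5:**
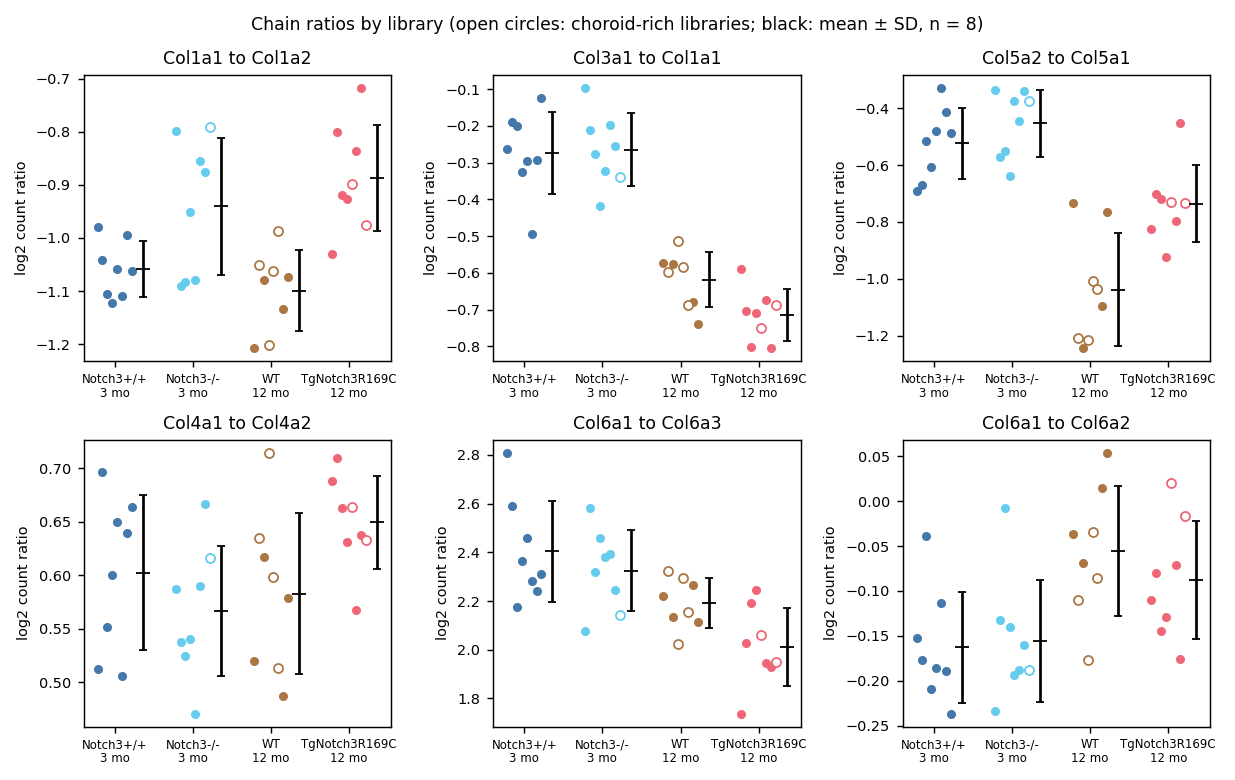
Log2 ratio of the counts of 2 chains in each library, for 6 pairs of chains and 4 groups, with open circles for choroid-rich libraries and black marks for the mean ± SD (n = 8). The ratio of Col3a1 to Col1a1 lies lower in both groups aged 12 months, and that of Col1a1 to Col1a2 higher in TgNotch3R169C than in WT mice.

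Col5a2 relative to Col5a1, the chains of type V collagen, was higher by 0.30 in TgNotch3R169C than in WT mice (exact permutation test, adjusted p = 0.0182), and lower by 0.51 in WT at 12 months than in Notch3+/+ at 3 months, a difference of −0.51 (adjusted p = 0.00140, exact permutation test). Without the choroid-rich libraries the TgNotch3R169C difference was 0.22 (adjusted p = 0.242, exact permutation test). Col3a1 relative to Col1a1 differed by −0.34 between the control groups (exact permutation test, adjusted p = 0.00140), so type III collagen mRNA fell more than type I. Its log2 ratio ran from −0.50 to −0.13 at 3 months and from −0.74 to −0.51 at 12 months, with no overlap. Col6a1 relative to Col6a3 was lower in TgNotch3R169C mice (−0.18, adjusted p = 0.0464, exact permutation test) and in the 12-month controls (−0.21, adjusted p = 0.0392, exact permutation test). These calls were lost in 12 and 8 of 16 tests that each left out 1 library, and without the choroid-rich libraries (adjusted p = 0.214 and 0.143, exact permutation test). With the replicate number as a block the adjusted p was 0.127 and 0.0703 (exact sign-flip test on the differences between same-numbered libraries). Col6a1 relative to Col6a2 was higher in the 12-month controls (0.11, adjusted p = 0.0280, exact permutation test). The ratio of Col4a1 to Col4a2 was not called in any comparison. Its mean was 0.60 ± 0.0721 in Notch3+/+, 0.57 ± 0.0607 in Notch3-/-, 0.58 ± 0.0749 in WT and 0.65 ± 0.0430 in TgNotch3R169C mice (SD of the log2 ratio, n = 8).

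Genes of the collagen pathway were examined in 4 lists, on folding in the endoplasmic reticulum (21 genes), on propeptide removal and cross-linking (18 genes), on receptors (12 genes) and on degradation (13 genes). None of their members was called in Notch3-/- or TgNotch3R169C mice, with medians between −0.05 and 0.06. In Notch3-/- mice 3 of 21, 2 of 17, 1 of 11 and 2 of 13 genes tested (in list order) had an unadjusted edgeR p below 0.05. The share of all genes was 7.69%. In TgNotch3R169C mice the numbers were 1, 7, 0 and 2, against 7.27% of all genes. In the 12-month controls 2 of 21 folding genes fell, where 4.05% of all genes were called lower and 3.87% higher. These were Plod2 (−0.33, edgeR adjusted p = 0.00270), a lysyl hydroxylase, and P3h1 (−0.16, adjusted p = 0.0335), a prolyl 3-hydroxylase. Of 17 cross-linking genes tested, 4 fell and 1 rose, against the same shares of all genes. Lox (−0.69, adjusted p = 0.000356) and Loxl2 (−0.66, adjusted p = 0.000748) encode lysyl oxidases, which cross-link fibrils, and Sparc (−0.41, adjusted p = 0.000489) binds collagen. Loxl1, another lysyl oxidase, was the other gene that fell. Pcolce2 (1.37, adjusted p = 0.0111), an enhancer of propeptide removal, rose.

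In the same comparison, where 4.05% of all genes were called lower and 3.87% higher, 3 of 11 receptors tested fell, Itgb1 (−0.41, edgeR adjusted p = 0.000420) and Itga1 (−0.36, adjusted p = 0.00306), which form a collagen-binding integrin, and Ddr2 (−0.19, adjusted p = 0.0249), a receptor kinase for fibrillar collagen. Of 13 degradation genes, 3 fell and 1 rose. Mmp2 (−0.53, adjusted p = 0.000448), a gelatinase, Mmp14 (−0.23, adjusted p = 0.0243), which activates it, and Ctsk (−0.53, adjusted p = 0.0134), a collagen-cleaving cathepsin, fell, and Mmp9 (1.19, adjusted p = 0.0170), the other gelatinase, rose. Without the choroid-rich libraries the numbers called were 2, 3, 2 and 2 in the 4 lists, where 2.22% of all genes were called. P3h1, Pcolce2, Ddr2, Ctsk and Mmp14 were then not called (edgeR adjusted p = 0.209, 0.156, 0.110, 0.0986 and 0.0648). The folding genes then called were Plod2 and a gene not named here.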

How the data were processed

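RNA from dissected brain arteries was sequenced as stranded poly(A) libraries, 1 per mouse. For the 32 libraries the authors deposited unnormalized counts of reads by gene. Per the submitters' processing notes, bcl2fastq 2.20.0.422, cutadapt 1.10, Bowtie2 2.2.8, STAR 2.5.3a and HTSeq 0.6.1p1 were used with build mm39. The annotation release and the strand setting of the counting are not given in the sources used here.

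Each comparison of 2 groups was fitted on all genes with edgeR 4.0.16 (R 4.3.3): filterByExpr, TMM scaling, and the quasi-likelihood test (glmQLFit, glmQLFTest). P-values were adjusted by the Benjamini-Hochberg method over all genes tested, and a gene was called at an adjusted p below 0.05. The difference between the mutant changes came from 1 fit of all 4 groups. Chain ratios were compared with the two-sided exact permutation test. With the replicate number as a block, an exact sign-flip test on the differences between same-numbered libraries took its place. The script was tested on simulated data. Exon lengths and gene overlaps are from GENCODE vM21, and promoter windows, available for 35 of the 44 genes, are from RefSeq GRCm38.p6. Gene coordinates on mm39 were not used here. Libraries held between 20289487 and 54481934 counts, and the median half-width of the 95% CI of a log2 fold change of a collagen was 0.223 in Notch3-/-, 0.236 in TgNotch3R169C and 0.220 in the control comparison. Libraries of a group differed by more than counting noise in every pair, so none was counted as a repeat.

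Which genes count as collagens followed from the symbol alone, but that rule and the lists were set with earlier results of these data known. The genes named are the called collagens, the 3 with the smallest p in each comparison, the most abundant of each class, the chains of types I, III, IV, VI, XV and XVIII, and up to 4 called genes of each list. Col2a1, Col6a4, Col6a5, Col8a1 and Loxl1 were named after their values were seen. Col5a1 and Col5a3, given beside Col5a2, are also outside these choices. The alternatives were RLE and upper-quartile scaling, no low-count filter, a minimum of 10 counts in each library, DESeq2 1.42.0, limma 3.58.1 (voom), all groups in 1 fit, the replicate number as a block, fibroblast or choroid plexus markers as a covariate, and each library left out in turn. Leaving out the choroid-rich libraries and an Xist covariate were added after seeing the data.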

Additional observations from a re-analysis of the deposited data

Results flagged for a closer look

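Of 120 sets of 8 libraries (30 named collagens in 4 groups), 21 had 1 library whose gap to the next, as a share of the range of its group, exceeded Dixon's critical value. Chance gives about 6.0. In 9 of the 21 the library was choroid-rich.

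Notch3-/- replicate 8, a choroid-rich library, was the highest of its group for Col9a3 (share 0.990, 281.0 CPM against 9.25 CPM for the next), Col17a1 (0.960), Col4a4 (0.700), Col8a2 (0.688) and Col4a3 (0.647). WT replicate 4, also choroid-rich, was highest for Col17a1 (0.629) and lowest for Col26a1 (0.596), Col1a2 (0.580) and Col6a1 (0.530).

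TgNotch3R169C replicate 7, with little Ttr, was the highest of its group for Col1a1 (0.693, 939.4 CPM against 615.4 CPM), Col3a1 (0.606) and Col14a1 (0.529). Notch3-/- replicate 1 was highest for Col10a1 (0.649), Col6a3 (0.635), Col14a1 (0.576) and Col18a1 (0.569), and Notch3-/- replicate 2 for Col28a1 (0.571). Notch3+/+ replicate 3 was the lowest of its group for Col14a1 (0.568). WT replicate 8 was highest for Col23a1 (0.592) and Col25a1 (0.546), and TgNotch3R169C replicate 6 for Col23a1 (0.554). The causes were not tested.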

How the results depend on the processing

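Shares of all genes called are given above only for DESeq2, the replicate block, the choroid covariate and the fits without choroid-rich libraries. Counts of collagens under the other settings cannot be set against such a share here. RLE or upper-quartile scaling and the Xist covariate left the number of collagens called at 1 in Notch3-/-, 0 in TgNotch3R169C, 18 in the control comparison and 0 for the difference between the mutant changes. In Notch3-/- mice 2 were called with no filter, with DESeq2 and with all 4 groups in 1 fit, 0 without the choroid-rich library, and 0 to 1 with 1 library left out. The Col14a1 call was lost without Notch3+/+ replicates 1, 4, 5, 6 or 7 or Notch3-/- replicates 2, 6, 7 or 8. In TgNotch3R169C mice DESeq2 called 2, the fibroblast covariate gave 1, and leaving out 1 library gave 0 to 1. In the control comparison the choroid covariate gave 9 and a median of −0.0371, and leaving out the choroid-rich libraries gave 10. For the difference, at least 10 counts in every library, DESeq2 and the fibroblast covariate each gave 1, and leaving out 1 library gave 0 to 1, the call being made without Notch3+/+ replicates 1, 3 or 6, Notch3-/- replicate 1, or TgNotch3R169C replicates 4, 5 or 8. The causes were not tested.

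With the replicate number as a block, the counts were 1, 0, 12 and 0. Same-numbered libraries correlated over 0.1 in 4, 4 and 3 of 8 pairs, and were best with their own number in 3, 1 and 2 of 8, so the numbers were not taken to pair the mice. In the block, chain ratios were compared by an exact sign-flip test on the differences between same-numbered libraries. Its smallest p was 0.0078, against 0.000155 for the exact permutation test, so the tests differ in resolution. In TgNotch3R169C mice Col5a2 to Col5a1 (0.30, adjusted p = 0.0703) and Col6a1 to Col6a3 (−0.18, adjusted p = 0.127) lost their call (exact sign-flip test). In the control comparison Col6a1 to Col6a3 (−0.21) and Col6a1 to Col6a2 (0.11) did (both adjusted p = 0.0703, exact sign-flip test).

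Without the choroid-rich libraries, the TgNotch3R169C differences of Col1a1 to Col1a2 (0.25), Col5a2 to Col5a1 (0.22) and Col6a1 to Col6a3 (−0.17) and the control difference of Col6a1 to Col6a3 (−0.22) lost their call, and Col6a1 to Col6a2 in TgNotch3R169C mice (−0.11) gained one. With 1 library left out, calls changed for Col1a1 to Col1a2 in Notch3-/- mice (0.0973 to 0.140), for Col3a1 to Col1a1 (−0.114 to −0.0813), Col4a1 to Col4a2 (0.0528 to 0.0852) and Col6a1 to Col6a3 (−0.213 to −0.141) in TgNotch3R169C mice, and for Col6a1 to Col6a3 in the control comparison (−0.246 to −0.155).

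With 1 library left out no called gene changed sign, but genes that were not called did, among them Col9a3 (−0.105 to 2.45) and Col17a1 (−0.0351 to 1.56) in Notch3-/- and Col17a1 (−0.85 to 0.40) in TgNotch3R169C mice. In the other settings, 17 values of named genes changed sign with a move of more than 1 SE, all of genes that were not called, and smaller moves across 0 are not listed. In Notch3-/- mice the 17 included Col17a1 (−0.0338 by DESeq2, −0.0351 without the choroid-rich library) and Col9a3 (−0.0957 and −0.105). In TgNotch3R169C mice, with the choroid covariate and without the choroid-rich libraries, they were Col17a1 (0.85 and 1.39), Col4a3 (0.0614 and 0.0315) and Col8a2 (0.19 and 0.29). In the control comparison they were Col13a1 (0.0618 with the covariate) and Col8a2 (−0.216 and −0.218), and for the difference Col17a1 (0.61 and 1.43) and Col8a2 (0.0686 and 0.24).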
